A study of Rattus norvegicus with 5 samples.

Results

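The receptors for serotonin, noradrenaline and adrenaline, dopamine, acetylcholine and histamine are the genes through which descending and local modulatory transmitters act on the spinal cord. They were taken from the deposited count table by gene symbol: serotonin receptors (Htr1 to Htr7), alpha and beta adrenoceptors (Adra1, Adra2, Adrb), dopamine receptors (Drd), muscarinic and nicotinic acetylcholine receptors (Chrm, Chrn) and histamine receptors (Hrh). The rule found 53 of the 17321 genes in the table. The tissue was lumbar dorsal horn (L4-L6), where sensory fibres of the hindlimb end, from Sprague Dawley rats. It was collected at day 9 from 2 surgical groups, CCI and SHAM. CCI commonly stands for chronic constriction injury, in which a peripheral nerve is loosely tied to model neuropathic pain. SHAM animals had control surgery. There were 3 CCI libraries and 2 SHAM libraries, with no further genotype or drug in either group per the labels. The labels used here do not say the age or sex, or that each library was 1 animal. The p-values therefore reflect only how far these 5 libraries spread, which may be technical.

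Most of these receptors couple to G proteins. Receptors of the Gi class lower neuronal excitability and transmitter release, those of the Gq class raise calcium and excitability, and those of the Gs class raise cyclic AMP. The nicotinic receptors and the Htr3 receptor are instead ion channels built of several subunits. In the spinal cord, serotonin and noradrenaline arrive mainly in fibres from the brainstem, whose cell bodies, and so whose RNA for synthesis enzymes, lie outside the dissected tissue. Acetylcholine comes from motor neurons and from local interneurons. Alpha 2 adrenoceptors, which dampen incoming pain signals, and muscarinic receptors are known targets for spinal analgesia, and serotonin acts in both directions through its different receptors.

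No receptor passed the test between CCI and SHAM. Of the 53 genes, 45 had 10 or more counts in at least 2 libraries and were tested, and 0 were called by edgeR's quasi-likelihood test at an adjusted p of at most 0.05 with a fold of at least 1.5. Over all genes tested, 384 of 13511 were called, or 2.84%, and a count of 0 among 45 is near this background. At an unadjusted p under 0.05 there were 5 receptors, or 11.1%, against 15.9% of all genes. The serotonin receptor gene Htr2a was the 1 receptor called by DESeq2, and likewise by the likelihood ratio test. Another count test, limma-voom, called 0 receptors. The median log2 fold change of the 45 was -0.07 (range -1.08 to 0.65), against 0.01 over all genes, and it was 0.099 without SHAM 2. By transmitter the median was -0.06 for 13 serotonin receptors, -0.17 for 8 adrenoceptors, 0.30 for 4 dopamine receptors, 0.10 for 5 muscarinic, -0.11 for 12 nicotinic and -0.10 for 3 histamine receptors. None of these signs flipped under another scaling, but single libraries moved the medians. Without SHAM 2 the serotonin median was 0.099, the adrenergic -0.10, the dopamine 0.51, the muscarinic 0.19, the nicotinic 0.0061 and the histamine -0.17. Without SHAM 1 the dopamine median was 0.11, the muscarinic -0.034 and the nicotinic -0.16. The nicotinic median was -0.23, -0.036 and -0.049 without CCI 1, CCI 2 and CCI 3, and the muscarinic was 0.18, -0.10 and 0.19. The serotonin median was -0.020 with no filter on low counts, and on the normalized table with a pseudocount of 0.5 it was -0.038 and the histamine median -0.066.

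**Figure D1:**
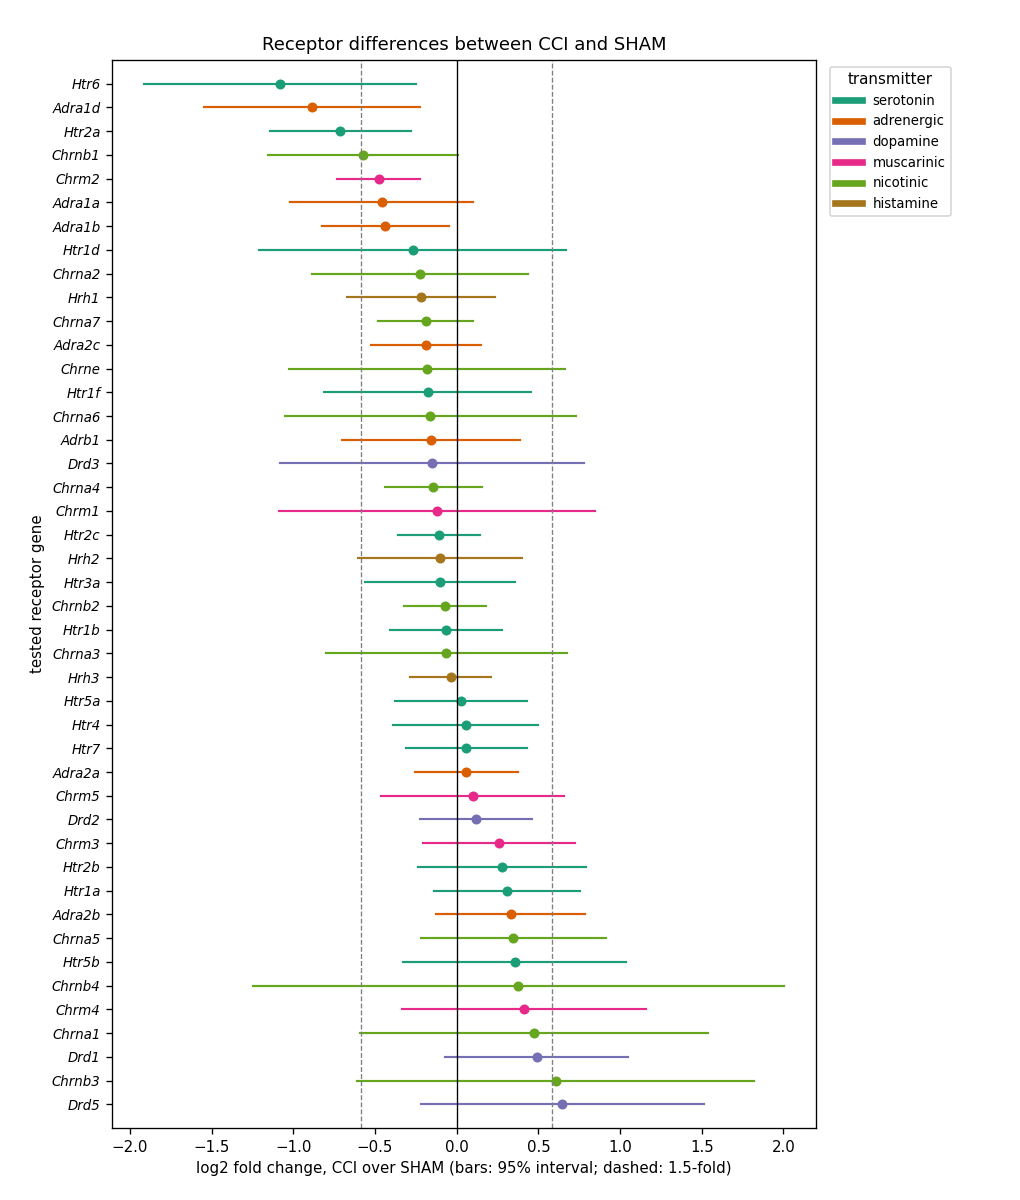
Log2 fold change of CCI over SHAM for 44 tested receptor genes, with its 95% interval as a bar and the transmitter as colour; dashed lines stand at a 1.5-fold difference either way. The fold changes run from -1.08 for Htr6 to 0.65 for Drd5, and 13 intervals lie wholly between the dashed lines.

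Libraries held 20053353 to 23673198 counts, and the 53 receptors together held 13922 to 19490 counts of each. Ribosomal RNA rows held 16.0% of the counts in CCI 3 and 2.18% to 2.71% elsewhere, and CCI 1 lay nearer to SHAM on the first principal component (-1.65) than CCI 2 (-38.4) and CCI 3 (-29.5). All 45 tested receptors reached 10 counts in libraries of both groups, 44 of them in every library, so no receptor entered the test through 1 group alone. The labelled tissue was checked against cell type markers. All 24 dorsal horn neuron markers in the table were tested and 0 were called. Their summed levels were 2515 to 2748 normalized TPM in CCI and 2572 to 2742 in SHAM, normalized TPM being the per-length scale of the authors' second table. The list includes Snap25, Syt1 and Rbfox3, which neurons in general express, so its sum does not set dorsal horn neurons apart from other neurons. Motor neuron markers, which belong to the ventral horn, were also present. Of 15 tested, 8 fell in CCI and 0 rose, where 0.259% of all genes were called lower and 2.58% higher, and their summed level was 1783 to 2791 normalized TPM in CCI against 4395 to 5909 in SHAM. Microglial markers stood at 1239 to 1452 normalized TPM in CCI and at 343 to 391 in SHAM, with 11 of 15 called higher. Of the other lists, 1 of 11 astrocyte markers rose and 1 fell, 1 of 11 Schwann cell markers rose, and 0 were called among 12 oligodendrocyte, 13 endothelial and mural, 11 fibroblast, 9 sensory ganglion, 5 ependymal, 4 skeletal muscle and 1 mast cell markers. Summed oligodendrocyte markers stood at 15087 to 18014 normalized TPM in CCI and 20728 to 20989 in SHAM, and astrocyte markers at 4843 to 6256 and 4734 to 4748. Endothelial and mural markers stood at 356 to 504 and 378 to 417, fibroblast markers at 441 to 632 and 487 to 614, and Schwann cell markers at 172 to 582 and 137 to 149. Sensory ganglion markers stood at 412 to 883 and 936 to 1064, ependymal markers at 55.8 to 66.1 and 62.8 to 72.2, skeletal muscle markers at 72.8 to 124 and 113 to 134, and mast cell markers at 7.48 to 11.8 and 6.50 to 9.31. The list medians of log2 fold change were 1.71 for fibroblast and 1.12 for Schwann cell markers, although the fibroblast sums overlapped. They were 0.14 for endothelial and mural, 0.05 for skeletal muscle and 0.33 for mast cell markers. The fibroblast list shares Pdgfra with the oligodendrocyte list, and a summed level follows mostly its most abundant members. Medians of the astrocyte, oligodendrocyte, ependymal and sensory ganglion lists were -0.08, -0.32, -0.43 and -0.47, against 0.01 over all genes. In bulk tissue, fewer cells of a type and less RNA per cell cannot be told apart.

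Between genes, levels were compared as normalized TPM. Htr2c, a Gq-coupled serotonin receptor, had the highest mean level of all 53, at 80.2 over the 5 libraries. Next came Chrm2, the Gi-coupled muscarinic receptor, at 38.3, the nicotinic subunits Chrnb2 and Chrna4 at 26.2 and 20.1, which pair to form the main high-affinity nicotinic receptor of the brain, and the alpha 2 adrenoceptor Adra2c at 19.0. In all, 13 receptors had a mean of at least 10 and 38 a mean of at least 1. Each transmitter had a leading receptor in every library. Htr2c held 47.6% to 52.2% of the summed serotonin receptor level, Chrm2 72.4% to 86.3% of the muscarinic, Drd2 70.5% to 76.2% of the dopamine and the Gi-coupled Hrh3 56.5% to 61.2% of the histamine receptor level. The adrenergic and nicotinic sums were more evenly spread, with Adra2c at 25.7% to 36.2% and Chrnb2 at 29.5% to 33.0%.

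**Figure D2:**
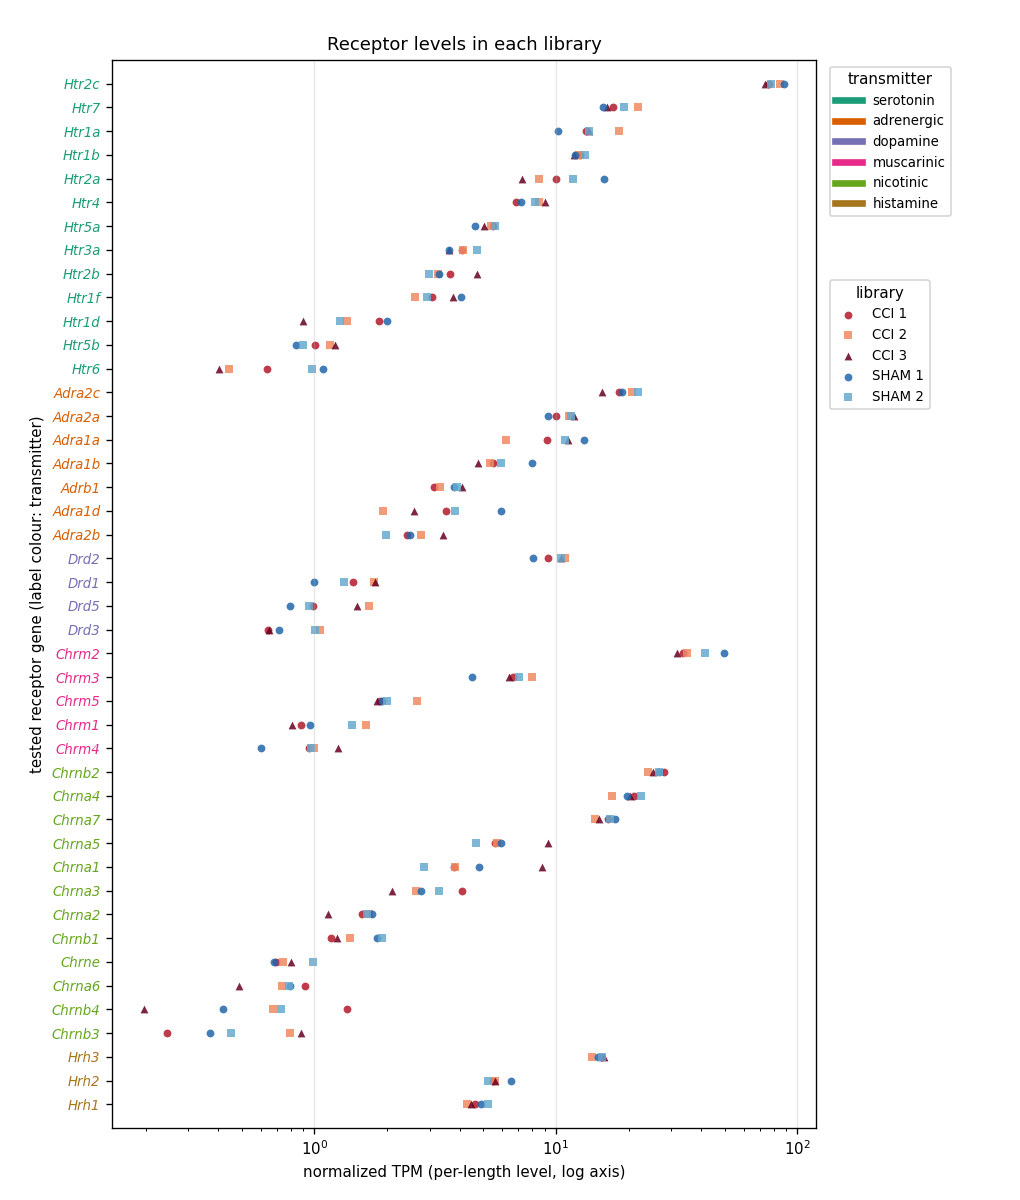
Per-length level (normalized TPM, log axis) of 44 tested receptor genes in each of the 5 libraries, grouped by transmitter and ordered by mean level within it. Htr2c lies at 73.8 to 88.1 in all libraries, above every other receptor, and the spread between libraries widens for genes below 1.

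The 8 untested receptors had at most 5 counts in any library. Adrb3, the beta adrenoceptor of fat tissue, had 4, 1, 3, 5 and 3 counts in CCI 1 to 3 and SHAM 1 and 2, and Chrng, the fetal muscle subunit, had 1, 3, 0, 4 and 1. Chrna10 had 3, 2, 2, 3 and 0 counts, Drd4 had 2, 2, 0, 2 and 0, and Htr3b, the partner subunit of Htr3a, had 0, 3, 1, 2 and 0. Chrna9 and Hrh4 each had 1 count, in CCI 2. Chrnd, a muscle subunit, had 0 counts in every library, where 3 counts would be 0.119 to 0.159 CPM (the share of a library's counts, scaled between libraries by TMM). These 8 were therefore at or near the limit of detection in both groups.

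By coupling class, the log2 fold change was negative in 7 of 10 Gq-coupled receptors (median -0.17), in 7 of 14 Gi-coupled (median -0.01), in 3 of 8 Gs-coupled (median 0.06) and in 9 of 13 channel subunits (median -0.10). It was negative in 57.8% of the 45 receptors and in 48% of all genes, and the classes are too small to set apart from these shares. At an unadjusted p under 0.05 stood Chrm2, Htr2a, Adra1d, Htr6 and Adra1b, 3 of them Gq-coupled, and each was lower in all CCI libraries than in both SHAM libraries. The groups did not overlap in 13 of the 45 receptors (28.9%), against 36.6% of all genes.

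Chrm2 had the smallest p of the receptors. It encodes the M2 receptor, which lowers transmitter release and also sits on motor neurons opposite large cholinergic synapses. Its level was 65.3, 66.6 and 60.9 CPM in CCI 1 to 3 and 97.3 and 81.6 CPM in SHAM 1 and 2. The CCI libraries lay within a narrow band below both SHAM libraries. The log2 fold change was -0.48 (SE 0.11, 95% interval -0.73 to -0.22, adjusted p = 0.0604), a level 1.39-fold lower in CCI, with means of 64.3 ± 3.01 CPM (SD, n = 3) against 89.5 ± 11.1 CPM (SD, n = 2). Its adjusted p was under the threshold by the likelihood ratio test (0.0119) and by DESeq2 (0.00545), but above it by limma-voom (0.0732). Over the alternatives with both SHAM libraries it ran from 0.00545 to 0.114, the latter without CCI 3. The fold stayed under 1.5 by each of these tests, so none of them called Chrm2. A two-sided exact permutation test of log2(CPM + 1) gave p = 0.1, the smallest value the 10 splits of these 5 libraries allow.

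Htr2a, the Gq-coupled serotonin receptor that raises motor neuron excitability, stood at 11.5, 9.61 and 8.22 CPM in CCI, against 18.3 and 13.8 CPM in SHAM. Every CCI library was below both SHAM libraries, with SHAM 1 well above the rest. The log2 fold change was -0.71 (SE 0.19, 95% interval -1.14 to -0.28, adjusted p = 0.0951), or 1.64-fold lower in CCI. This is the receptor whose call depended on the test. Its adjusted p was 0.0334 by the likelihood ratio test, 0.0381 by DESeq2 and 0.0359 by the quasi-likelihood test without CCI 1. These counted as calls. By limma-voom the adjusted p was 0.102, which was no call. Over the other alternatives with both SHAM libraries it ran up to 0.19, that value being without CCI 3. The permutation test gave the smallest exact p again, 0.1. This test gave the same value for Adra1b, Htr6, Chrnb1, Drd1 and Hrh1 and 0.2 for Adra1d, so it sets little apart.

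Adra1d, an alpha 1 adrenoceptor coupled to Gq, had 8.19, 4.45 and 5.94 CPM in CCI, against 13.9 and 8.99 CPM in SHAM. CCI 1 and SHAM 2 nearly met. Its log2 fold change was -0.89 (SE 0.29, 95% interval -1.55 to -0.23, adjusted p = 0.182), and it was called without CCI 1 (-1.15, adjusted p = 0.036). Over the alternatives with both SHAM libraries its adjusted p ran from 0.036 to 0.346, the latter without CCI 3. Adra1b, a second alpha 1 receptor, had 10.8, 10.4 and 9.28 CPM in CCI, against 15.7 and 11.8 CPM in SHAM, or -0.44 on the log2 scale (SE 0.17, 95% interval -0.82 to -0.05, adjusted p = 0.253). The third, Adra1a, stood at 9.53, 6.27 and 11.5 CPM in CCI, against 13.5 and 11.4 CPM in SHAM, with groups that overlapped at CCI 3 and SHAM 2 (log2 fold change -0.46, SE 0.24, adjusted p = 0.405). Summed on the per-length scale, the 3 alpha 1 genes came to 18.2, 13.5 and 18.6 normalized TPM in CCI and to 26.9 and 20.6 in SHAM.

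Htr6, a Gs-coupled serotonin receptor, had the lowest fold change of the receptors at the lowest level of these 5 genes. It rests on 20, 16 and 11 counts in CCI and 35 and 29 in SHAM, or 0.926, 0.635 and 0.583 CPM against 1.59 and 1.45 CPM. All 3 CCI libraries were below both SHAM libraries. The log2 fold change was -1.08 (SE 0.37, 95% interval -1.91 to -0.25, adjusted p = 0.19). On the normalized table with a pseudocount of 0.5 it was -0.63 (adjusted p = 0.199). Over the alternatives with both SHAM libraries the adjusted p of Htr6 ran from 0.0942 to 0.331, the latter by DESeq2.

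**Figure D3:**
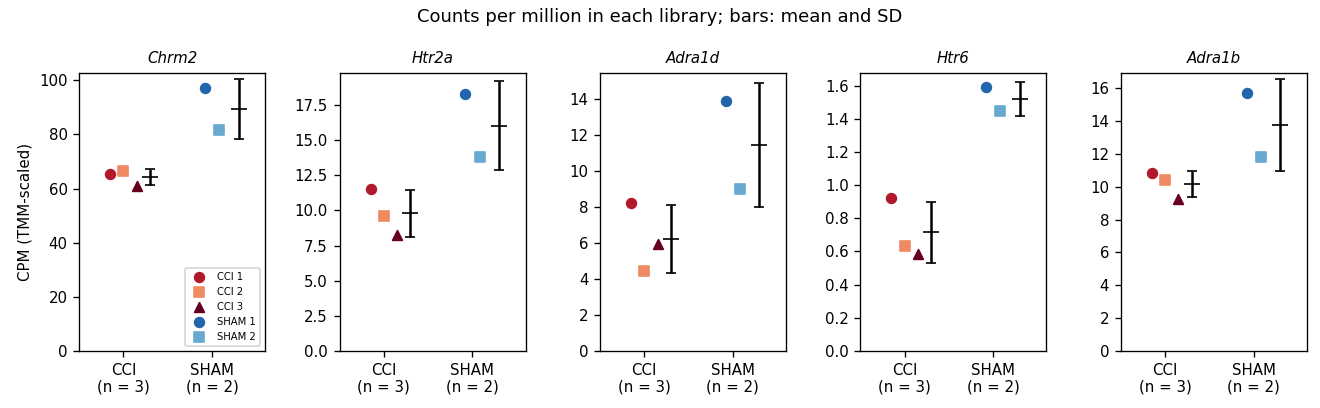
Level in CPM in each library for the 5 receptor genes with an unadjusted p under 0.05, with the mean and SD of each group (3 CCI and 2 SHAM libraries) as bars. In each panel the 3 CCI points lie below both SHAM points, and for Adra1d CCI 1 at 8.19 lies near SHAM 2 at 8.99.

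SHAM 1 was the highest library for all 5 of these genes, and the fold changes moved with it. Without SHAM 1 the log2 fold change was -0.35 for Chrm2, -0.49 for Htr2a, -0.54 for Adra1d, -0.21 for Adra1b and -1.01 for Htr6. Without SHAM 2 the same genes stood at -0.61, -0.91, -1.17, -0.64 and -1.15. The sign was negative in each of the 14 alternatives for all 5 genes. In these genes every CCI library was below both SHAM libraries, so leaving out 1 library could hardly reverse the sign. The other alternatives used the same 5 libraries, so the constant sign is no separate evidence.

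**Figure D4:**
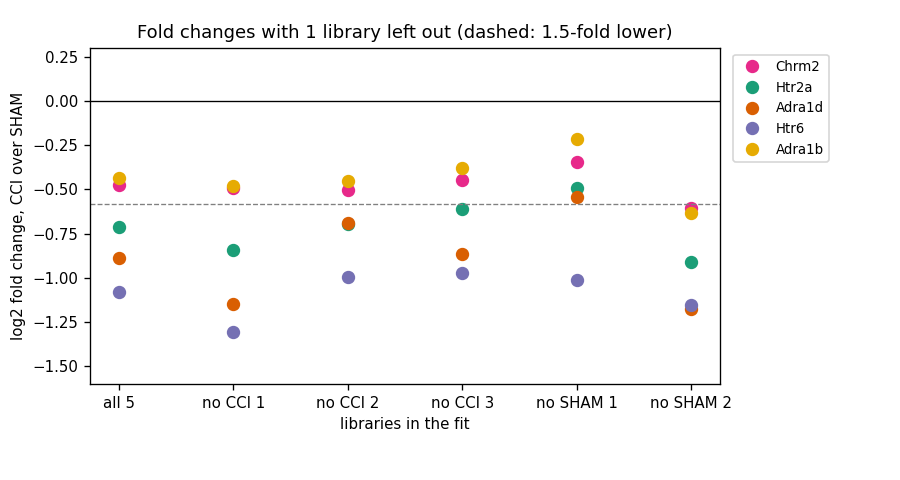
Log2 fold change of the same 5 receptor genes with all libraries and with each library left out in turn; the dashed line marks a 1.5-fold lower level in CCI. Every point lies below 0, which groups without overlap make nearly certain, and leaving out SHAM 1 brings Adra1b to -0.21 and Chrm2 to -0.35.

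Motor neuron markers were also lower in every CCI library than in both SHAM libraries. Relative to the SHAM mean, their summed per-length level was 0.542, 0.364 and 0.346 for CCI 1 to 3, against 1.15 and 0.853 for SHAM 1 and 2. Neurofilament genes, which other large neurons also express, held 86.5% to 94.5% of that sum. The sum of Chat, Slc18a3 and Slc5a7, which make, pack and recycle acetylcholine or its precursor, was 0.454, 0.225 and 0.375 in CCI and 1.19 and 0.808 in SHAM. On the CPM scale, Chrm2 stood at 0.730, 0.745 and 0.680 of its SHAM mean in CCI, Htr2a at 0.719, 0.599 and 0.513, Adra1d at 0.717, 0.389 and 0.520, Adra1b at 0.787, 0.756 and 0.674 and Htr6 at 0.609, 0.418 and 0.384. In every CCI library all 5 genes were above both marker sums, and SHAM 1 exceeded SHAM 2 in each of them as in the markers. Within CCI, Htr2a, Adra1b and Htr6 followed the order of the motor neuron sum, highest in CCI 1 and lowest in CCI 3. Adra1d followed that of the cholinergic sum, lowest in CCI 2, and Chrm2, highest in CCI 2, followed neither. The sensory ganglion neuron list shares Prph, Isl1 and Calca with the motor neuron list, so their sums are not independent. Summed sensory ganglion neuron markers were lower in CCI too, at 883, 412 and 583 normalized TPM against 1064 and 936 in SHAM. Tubb3, a tubulin of neurons in general, made up 541, 321 and 369 of these in CCI and 665 and 626 in SHAM, while Mrgprd, a receptor of pain fibres, had 0 in every library and Scn10a, a sodium channel of sensory neurons, at most 0.1. The 5 receptor genes were chosen as lower in CCI, and orders of so few libraries can match by chance. The part of motor or sensory neuron tissue in these receptor values was not tested.

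**Figure D5:**
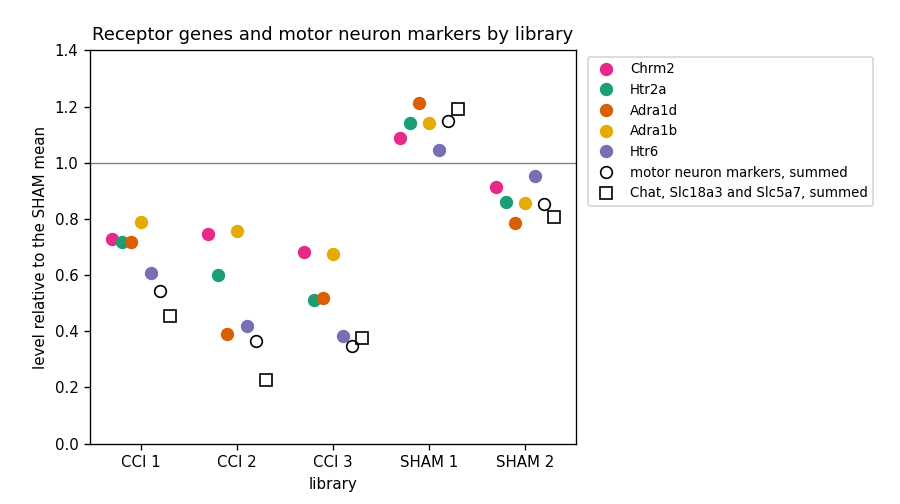
Level in each library relative to the SHAM mean, for the 5 receptor genes (CPM, filled points) and for the summed motor neuron markers and the sum of Chat, Slc18a3 and Slc5a7 (normalized TPM, open points). All points of CCI 1, CCI 2 and CCI 3 lie below 0.8 and those of SHAM 1 above 1.

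The sequences just upstream of these genes are shown because all 5 were lower in CCI at an unadjusted p under 0.05, beside that of Htr2c, the most abundant receptor, for contrast, a choice made after their values were seen. Windows of the 250 bases before the gene start were taken from RefSeq on the GRCr8 build, which held 41 of the 53 receptors, not Htr2a. Each is written 5′ to 3′ on the gene's strand with CG dinucleotides, the sites of DNA methylation, in capitals. Chrm2 lies at chr4:65982200-65982449 on the plus strand, Adra1d at chr3:139262332-139262581 on the minus strand, Adra1b at chr10:28814348-28814597 on the minus strand, Htr6 at chr5:156595148-156595397 on the minus strand and Htr2c at chrX:115452940-115453189 on the plus strand.
Chrm2: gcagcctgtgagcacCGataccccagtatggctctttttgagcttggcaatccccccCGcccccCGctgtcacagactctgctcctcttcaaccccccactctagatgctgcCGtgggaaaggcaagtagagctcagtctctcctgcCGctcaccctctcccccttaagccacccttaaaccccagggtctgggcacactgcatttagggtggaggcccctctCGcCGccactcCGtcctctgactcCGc
Adra1d: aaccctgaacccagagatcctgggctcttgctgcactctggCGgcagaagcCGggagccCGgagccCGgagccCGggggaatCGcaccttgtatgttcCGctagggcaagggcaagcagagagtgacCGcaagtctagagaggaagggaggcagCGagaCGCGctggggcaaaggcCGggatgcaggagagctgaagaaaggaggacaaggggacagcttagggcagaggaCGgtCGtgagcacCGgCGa
Adra1b: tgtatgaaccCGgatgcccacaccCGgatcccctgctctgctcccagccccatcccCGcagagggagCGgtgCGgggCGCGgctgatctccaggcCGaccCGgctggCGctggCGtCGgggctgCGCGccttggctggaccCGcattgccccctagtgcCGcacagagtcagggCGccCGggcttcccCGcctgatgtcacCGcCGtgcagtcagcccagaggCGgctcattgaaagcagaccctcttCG
Htr6: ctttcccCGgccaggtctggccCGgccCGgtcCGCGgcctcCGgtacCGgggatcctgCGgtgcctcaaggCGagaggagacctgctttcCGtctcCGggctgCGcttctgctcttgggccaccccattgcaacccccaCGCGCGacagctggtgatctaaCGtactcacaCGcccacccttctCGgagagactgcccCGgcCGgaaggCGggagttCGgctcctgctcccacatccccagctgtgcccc
Htr2c: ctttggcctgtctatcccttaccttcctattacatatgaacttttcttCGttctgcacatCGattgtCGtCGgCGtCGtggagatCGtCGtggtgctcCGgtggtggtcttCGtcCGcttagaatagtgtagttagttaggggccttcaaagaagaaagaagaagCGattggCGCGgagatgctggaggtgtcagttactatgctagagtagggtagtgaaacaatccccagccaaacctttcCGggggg
The windows of Chrm2, Adra1d, Adra1b and Htr6 were 62.0%, 64%, 70.8% and 69.2% G or C with 9, 16, 23 and 22 CG dinucleotides, and that of Htr2c was 50.4% with 15. Over the 41 receptor windows the medians were 60.0% and 14, against 51.2% and 5 over 33465 gene windows. The Sp1 box GGGCGG, searched on both strands, stood in 20 of 41 receptor windows (48.8%) and in 30.5% of all windows. The cAMP response core TGACG was in 17.1% of receptor and 18.2% of all windows, and TATAAA in 4.9% and 12.9%. Of the 4 lower genes, Chrm2 held 1 Sp1 box and the other 3 held 0, and no window of the 4 held TGACG or TATAAA.

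The remaining serotonin receptors did not pass either, and for several the interval was narrow. Htr2c was measured at 274, 303 and 261 CPM in CCI, against 319 and 282 CPM in SHAM. The groups overlapped, and the log2 fold change was -0.11 (SE 0.11, 95% interval -0.36 to 0.15, adjusted p = 0.671). Htr1a, the Gi-coupled receptor that also serves as autoreceptor of serotonin neurons, stood at 11.99, 16.1 and 12.2 CPM in CCI, against 9.18 and 12.5 CPM in SHAM (log2 fold change 0.31, SE 0.20, adjusted p = 0.475), with CCI 2 the highest library. Htr7, coupled to Gs, was at 18.9, 23.3 and 17.5 CPM against 17.1 and 21.1 CPM, and Htr1b, a Gi-coupled receptor of nerve terminals, at 10.1, 9.77 and 9.44 CPM against 9.64 and 10.8 CPM. Their log2 fold changes were 0.06 (95% interval -0.31 to 0.43) and -0.06 (-0.41 to 0.28). Htr3a, the channel subunit, had 6.25, 6.19 and 5.46 CPM in CCI, against 5.55 and 7.29 CPM in SHAM (log2 fold change -0.10, interval -0.56 to 0.36). Intervals of Htr4 (-0.39 to 0.50) and Htr5a (-0.38 to 0.43) also excluded a 1.5-fold difference either way.

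Less precise serotonin receptors were Htr2b, the Gq-coupled receptor known from vessels and heart, at 5.60, 4.96 and 7.21 CPM in CCI, against 5.09 and 4.65 CPM in SHAM (log2 fold change 0.28, SE 0.23), and Htr1f at 3.10, 2.58 and 3.76 against 4.09 and 2.998 CPM (-0.18, SE 0.28). Both overlapped between the groups. Htr1d, with 13 to 34 counts per library, had a log2 fold change of -0.27 (SE 0.42). Htr5b stood at 1.71, 1.99 and 2.07 CPM in CCI, above both SHAM values of 1.45 and 1.55 CPM, but did not pass (0.35, SE 0.30, adjusted p = 0.59).

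The alpha 2 adrenoceptors are the targets of clonidine. Adra2a had 22.3, 24.9 and 26.0 CPM in CCI, against 20.9 and 26.0 CPM in SHAM, or 0.06 on the log2 scale (SE 0.14, 95% interval -0.25 to 0.37, adjusted p = 0.865). Adra2c had 23.3, 25.8 and 19.5 CPM in CCI, against 23.95 and 28.2 CPM in SHAM (-0.19, SE 0.15, interval -0.52 to 0.15). Both intervals excluded a 1.5-fold difference. Adra2b, less abundant per length, had 7.96, 8.97 and 10.98 CPM against 8.23 and 6.55 CPM (0.33, SE 0.20, adjusted p = 0.456). The sum of the 3 alpha 2 genes was 30.8, 34.7 and 30.7 normalized TPM in CCI and 30.6 and 35.4 in SHAM, so that alpha 2 levels overlapped where the alpha 1 sums did not.

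Beta adrenoceptors couple to Gs. Adrb1 had 3.15, 3.30 and 4.08 CPM against 3.82 and 4.00 CPM, with overlapping groups (-0.16, SE 0.24).

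Dopamine receptors of the Gs-coupled class lay higher in CCI without passing the test. Drd1 stood at 3.98, 4.80 and 4.83 CPM in CCI, against 2.77 and 3.70 CPM in SHAM (log2 fold change 0.49, SE 0.25, adjusted p = 0.375), and Drd5 at 1.02, 1.71 and 1.54 CPM against 0.818 and 0.999 CPM (0.65, SE 0.38, adjusted p = 0.443). Neither overlapped between the groups, and the margin between CCI 1 and SHAM 2 was narrow in both. Drd5 rests on 18 to 43 counts per library. The Gi-coupled Drd2, the main dopamine receptor here, had 20.1, 23.4 and 22.5 CPM in CCI, against 17.5 and 23.1 CPM in SHAM (0.12, SE 0.15, 95% interval -0.22 to 0.46). Drd3, at 13 to 28 counts per library, overlapped (-0.15, SE 0.41).

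For the muscarinic receptors other than Chrm2 the groups overlapped. Chrm3, the Gq-coupled receptor, stood at 21.98, 26.3 and 20.9 CPM in CCI, against 14.999 and 23.6 CPM in SHAM, where SHAM 1 was the lowest library (log2 fold change 0.26, SE 0.20, adjusted p = 0.562). Chrm4, Gi-coupled like Chrm2, had 2.08, 2.14 and 2.70 CPM against 1.32 and 2.15 CPM (0.41, SE 0.33), and Chrm5, coupled to Gq, 4.03, 5.68 and 3.87 CPM against 4.14 and 4.35 CPM (0.10, SE 0.25). Chrm1 rests on 15 to 40 counts (-0.12, SE 0.43). The summed muscarinic level was 44.0, 48.1 and 42.1 normalized TPM in CCI and 57.8 and 53.0 in SHAM. Without Chrm2 it was 10.3, 13.3 and 10.3 against 7.94 and 11.4, and the groups then overlapped.

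The main nicotinic subunits of the brain type had narrow intervals. Chrnb2 stood at 47.6, 40.4 and 42.2 CPM in CCI, against 45.5 and 45.8 CPM in SHAM (log2 fold change -0.07, SE 0.11, 95% interval -0.32 to 0.18, adjusted p = 0.784). Its partner Chrna4 had 34.8, 27.9 and 33.1 CPM against 32.9 and 37.6 CPM (-0.14, SE 0.13, interval -0.44 to 0.15). Chrna7, which forms a channel of 1 subunit kind with high calcium flow, had 18.1, 15.7 and 16.4 CPM in CCI, all below the 19.5 and 18.7 CPM of SHAM (-0.19, SE 0.13, interval -0.48 to 0.10, adjusted p = 0.496). All 3 intervals excluded a 1.5-fold difference. Chrna2, known from Renshaw cells, the inhibitory partners of motor neurons, had 2.31, 2.42 and 1.64 CPM against 2.55 and 2.45 CPM (-0.23, SE 0.29).

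Subunits of ganglionic and accessory type were more variable. Chrna5, Chrna3 and Chrnb4 are next to each other on rat chromosome 8 and can form 1 receptor, but their mean per-length levels were 6.24, 2.98 and 0.675 normalized TPM. Chrna5 stood at 13.4, 13.5 and 21.9 CPM in CCI, against 14.2 and 11.3 CPM in SHAM (0.35, SE 0.24), highest in CCI 3. Chrna3 had 4.49, 2.82 and 2.28 CPM against 3.05 and 3.65 CPM, and Chrnb4 had 32, 18 and 4 counts against 10 and 16. For both, CCI 1 was the highest and CCI 3 the lowest library, with log2 fold changes of -0.06 (SE 0.33) and 0.38 (SE 0.70). Chrna6 and Chrnb3, a neighbouring pair known from dopamine neurons, had 12 to 26 and 11 to 41 counts per library (-0.16, SE 0.39 and 0.61, SE 0.53).

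Subunits of the muscle receptor were detected in part. Chrna1, the muscle alpha subunit, had 5.28, 5.24 and 12.1 CPM in CCI, against 6.77 and 4.00 CPM in SHAM, and CCI 3 stood apart (log2 fold change 0.47, SE 0.44, and -0.042 without CCI 3). In the same library the summed Schwann cell markers were 582 normalized TPM, against 137 to 311 in the other 4, and the part of that tissue was not tested. Chrnb1 had 2.08, 2.46 and 2.17 CPM in CCI, against 3.23 and 3.45 CPM in SHAM, with no overlap (-0.57, SE 0.26, adjusted p = 0.318). Chrne, the adult subunit, had 18 to 24 counts per library (-0.18, SE 0.37), whereas Chrnd and Chrng were at 0 to 4 counts. Of the skeletal muscle markers 8 of 10 had a mean below 1 normalized TPM, and Ckm and Myh4, muscle creatine kinase and a fast myosin, were at most 0.236. Acta1, muscle actin, stood at 65.0 to 116 in CCI and 106 to 127 in SHAM.

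Histamine receptors overlapped or nearly so. Hrh3, which limits release of histamine and other transmitters, stood at 33.5, 29.9 and 33.6 CPM in CCI, against 32.3 and 34.1 CPM in SHAM (log2 fold change -0.04, SE 0.11, 95% interval -0.29 to 0.21). Hrh1, coupled to Gq, had 4.91, 4.45 and 4.67 CPM, all below the 5.23 and 5.65 CPM of SHAM (-0.22, SE 0.20, adjusted p = 0.618), and the Gs-coupled Hrh2 had 4.03, 4.01 and 4.08 CPM against 4.77 and 3.90 CPM (-0.10, SE 0.22).

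In 13 of 45 receptors (28.9%) the 95% interval lay wholly within 1.5-fold either way, against 58.6% of all genes, and the median SE was 0.23 against 0.14. They were Htr2c, Htr7, Htr1b, Htr4, Htr5a, Htr3a, Adra2a, Adra2c, Drd2, Chrnb2, Chrna4, Chrna7 and Hrh3. The intervals of the other 32 extended past 1.5-fold in at least 1 direction, so a difference of that size lies within them. The estimated counts of Chrna1, Chrna5, Chrnb1, Hrh3 and Htr5b were not whole numbers in the deposited table, so reads may be split between near-identical sequences, and those values are uncertain.

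Genes that supply and clear the transmitters were read from lists of each pathway. In the acetylcholine list 2 of 8 tested genes fell and 0 rose, where 0.259% of all genes were called lower and 2.58% higher, with a list median of -0.55 against 0.01 over all genes. They were Chat, which makes acetylcholine, with means of 33.8 ± 7.13 CPM over the CCI libraries (SD, n = 3) and 68.7 ± 11.97 CPM over the SHAM libraries (SD, n = 2) (log2 fold change -1.02, SE 0.19, adjusted p = 0.0345), and Slc5a7, which takes up choline, at 44.4 ± 12.5 and 173 ± 63.3 CPM (-1.96, SE 0.32, adjusted p = 0.0454). Both also stand in the motor neuron list, and the counts of Chat were not whole numbers. Colq, which anchors acetylcholinesterase, had 1.77 ± 0.231 and 3.22 ± 0.458 CPM and did not pass (-0.86, SE 0.28, adjusted p = 0.17). Of 10 tested helper genes of nicotinic receptors 1 fell and 0 rose, against the same shares of all genes. It was Musk, the kinase of the neuromuscular synapse (-2.08, SE 0.32, adjusted p = 0.00935), on 22, 19 and 13 counts in CCI and 87 and 61 in SHAM. Lynx1 and Lypd6b, membrane proteins that modulate nicotinic receptors, had log2 fold changes of -0.36 (SE 0.13) and -0.39 (SE 0.14) that did not pass (adjusted p = 0.197 and 0.21).

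None of the monoamine supply genes was called, and their levels ranged widely. Tph2, the neuronal enzyme of serotonin synthesis, and Slc6a4, the serotonin transporter, had mean levels of 0.404 and 0.093 normalized TPM. Dbh and Slc6a2, which make and take up noradrenaline, had 0.0054 and 0.0272. Higher were Slc18a2, the vesicular monoamine transporter, at 4.75, Ddc, the decarboxylase shared by serotonin and catecholamine synthesis, at 2.71, and Th, the tyrosine hydroxylase of catecholamine synthesis, at 1.50. Of 7 tested serotonin supply genes 0 passed, the 3 of smallest p being Maob, a monoamine-degrading enzyme (log2 fold change 0.25, adjusted p = 0.424), Ddc (-0.20, adjusted p = 0.553) and Maoa (0.12, adjusted p = 0.647). Among 8 catecholamine genes 0 passed. Gch1, which makes the cofactor of the monoamine synthesis enzymes, had 141, 73 and 103 counts in CCI and 39 and 34 in SHAM (1.51, SE 0.37, adjusted p = 0.0739), and Qdpr, which recycles that cofactor, had -0.42 (SE 0.15, adjusted p = 0.226). Slc22a2, an organic cation transporter, had 1, 52 and 45 counts in CCI and 0 and 2 in SHAM. CCI 1 was within the SHAM values for this gene. Histamine genes Hnmt (-0.35, adjusted p = 0.373) and Aoc1 (0.28, adjusted p = 0.79) did not pass either.

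Downstream of the receptors, 0 of 21 tested G protein, receptor kinase, arrestin and RGS genes were called, and their median was 0.04 on the log2 scale. The 3 of smallest p were Gnai3, an inhibitory alpha subunit (0.30, SE 0.10, adjusted p = 0.207), Grk6, a receptor kinase (0.27, SE 0.12, adjusted p = 0.296), and Rgs2, which shortens Gq signals (0.29, SE 0.14, adjusted p = 0.356).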

How the data were processed

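Total RNA of 5 dorsal horn libraries was sequenced on an Illumina HiSeq, and groups were taken from the treatment label. Estimated counts by gene were deposited by the authors; the submitters' processing notes name kallisto 0.44.0, edgeR and the build rn6. They also deposited a per-length table named TPM, scaled by trimmed mean of M-values per the labels, whose column totals differ, so that it is treated here as a signal. The annotation is not given in the sources used here. Counts were rounded to whole numbers. Genes with 10 or more counts in at least 2 libraries (13511 of 17321) entered the two-sided quasi-likelihood test of edgeR 4.0.16 (R 4.3.3, robust fit, TMM factors, 3 residual degrees of freedom). P-values were adjusted by Benjamini-Hochberg across these genes. Calls took both limits of the series' own definition, adjusted p up to 0.05 and fold from 1.5 upward. Each SE is log2 fold change over the square root of F. The CPM are from TMM-scaled counts.

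Receptor genes are named with their values, except 1 that counts among the 45 tested but is not reported here. From 6 pathway lists the called genes, or at least the 3 of smallest p, are named, and 12 cell type lists give summed levels. Members and lists were chosen with earlier results of these data known. Promoter windows were read from RefSeq (GRCr8), whose symbols matched all 53 receptors; no coordinates of rn6 were used. Windows with a letter other than A, C, G or T were left out. Alternatives were other filters, DESeq2 size factors, DESeq2 1.42.0, limma-voom (limma 3.58.1), edgeR's likelihood ratio test, limma on log2 of the TPM table plus 0.5 or 0.1, leaving out ribosomal RNA rows, and leaving out each library. Scripts were tested on simulated data. Figures were drawn with matplotlib 3.10.9.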

Additional observations from a re-analysis of the deposited data

How the results depend on the processing

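The number of all genes called was 646 by likelihood ratio and 614 by DESeq2, against 384, and ran from 71 (without SHAM 1) to 766 (without CCI 1) when 1 library was left out; it was 88 without SHAM 2. The number of receptors called was 1 by likelihood ratio and 1 by DESeq2 (Htr2a in both). It ran from 0 to 2 with 1 CCI library left out, the 2 being Htr2a and Adra1d without CCI 1. Limma-voom called 331 of all genes and 0 receptors. The receptors' median log2 fold change ran from -0.088 to 0.099 with 1 library left out, the highest being without SHAM 2. Of 45 receptors, 25 kept the sign of their log2 fold change in all 14 alternatives. The other 20, none of them called in any alternative, changed sign only when a library was left out, and their log2 fold changes then ran as follows: Adra2a -0.092 to 0.22, Chrm1 -0.51 to 0.19, Chrm3 -0.034 to 0.61, Chrm5 -0.10 to 0.19, Chrna1 -0.042 to 0.91, Chrna3 -0.38 to 0.12, Chrna6 -0.38 to 0.033, Chrnb4 -0.35 to 0.82, Chrne -0.43 to 0.11, Drd2 -0.068 to 0.32, Drd3 -0.43 to 0.11, Hrh2 -0.25 to 0.051, Hrh3 -0.076 to 0.017, Htr1b -0.14 to 0.011, Htr1d -0.55 to 0.080, Htr1f -0.39 to 0.066, Htr3a -0.29 to 0.099, Htr4 -0.050 to 0.16, Htr5a -0.11 to 0.17 and Htr7 -0.086 to 0.21. The cause of these shifts was not tested. A fit without 1 SHAM library assumes that the lone SHAM library varies like those of CCI. No paired analysis was possible because the numbers that name the libraries only follow their order of deposit, and no label ties a CCI library to a SHAM library. Depth limits most the receptors with few counts, such as Chrnb4, Chrna6, Drd3 and Chrne.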
